A study of Mus musculus with 8 samples.

Results

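The kinetochore, centromere and spindle checkpoint genes described here are 39 named genes, and all 39 were found among the 37310 genes listed in every library. They were chosen by symbol, by matching the Ensembl identifier of each count row to a mouse gene name. The study came out of an RNAi screen of helicases, per its title, and profiled eIF4A3 in mouse embryonic stem cells by poly-A RNA sequencing of 8 libraries. The J1 line (strain 129S4/SvJae) gave 3 groups of 2 libraries: eIF4A3 knockdown with Ccnb1 overexpression (written labelled KD+Ccnb1), eIF4A3 knockdown with the control for overexpression (written labelled KD), and the controls for both (control). The CCE line (strain 129/Sv) gave 2 libraries, both with the label of an eIF4A3 knockdown, and no CCE control was used. All 4 groups were feeder-free cultures kept with leukemia inhibitory factor (LIF), transfected, infected with lentivirus, selected with puromycin at 1 µg/mL for 2.5 days and collected 4.5 days after infection, controls included. No label states that the 2 libraries of a group came from separate cultures, so p-values measure only the spread between these libraries, which may be technical.

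The helicase eIF4A3 is a core part of the exon junction complex, which marks spliced mRNA and takes part in nonsense-mediated decay, and Ccnb1 encodes cyclin B1, which with Cdk1 drives entry into mitosis. The kinetochore is the protein assembly that links a chromosome's centromere to spindle microtubules. Nucleosomes that carry the histone variant CENP-A mark the centromere, and an inner layer called the constitutive centromere-associated network (CCAN) binds them. The outer KNL1, MIS12 and NDC80 complexes together link this layer to microtubules. The spindle checkpoint holds back anaphase until every kinetochore is attached. Mouse embryonic stem cells divide fast, and transcripts of many of these genes peak late in the cell cycle, so the level of such a transcript in a bulk culture combines the share of cells near mitosis with the amount of RNA in each of those cells. Fewer expressing cells and less RNA per cell cannot be told apart in these libraries.

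Late cell cycle promoters are known for CCAAT boxes, to which NF-Y binds, for the cell cycle genes homology region (here the letters TTTGAA), and for E2F sites (here TTGGCGC or TTCCCGC). RefSeq promoters of build GRCm38.p6, 250 bases before to 50 after the start, were at hand for 35 of the 39 genes, all but Incenp, Spc24, Ska1 and Nsl1. Searched on both strands, CCAAT was in 22 of the 35 promoters (62.9%) and in 41.1% of the promoters of 27025 genes. TTTGAA was in 15 of 35 (42.9%) and in 20.2% of all. TTGGCGC or TTCCCGC was in 11 of 35 (31.4%) and in 7.79% of all. These matches describe letters, not binding. The 150 bases before the start are printed below, 5′ to 3′ on the gene's strand, for 6 of the 12 genes that passed the test in at least 2 comparisons, those with no other start over 30 bases upstream, and capitals mark CCAAT or its reverse complement.
Bub1 (chr2:127831860-127832009, minus strand): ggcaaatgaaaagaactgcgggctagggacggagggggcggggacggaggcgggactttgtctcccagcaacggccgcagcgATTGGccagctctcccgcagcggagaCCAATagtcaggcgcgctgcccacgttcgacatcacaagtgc
Bub1b (chr2:118598061-118598210, plus strand): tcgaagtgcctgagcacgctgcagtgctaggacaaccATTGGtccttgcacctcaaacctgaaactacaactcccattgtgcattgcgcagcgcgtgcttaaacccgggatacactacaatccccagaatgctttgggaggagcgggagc
Mad2l1 (chr6:66535071-66535220, plus strand): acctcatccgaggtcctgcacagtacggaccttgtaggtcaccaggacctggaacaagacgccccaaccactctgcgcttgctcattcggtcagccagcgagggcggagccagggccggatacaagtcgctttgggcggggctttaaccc
Birc5 (chr11:117849087-117849236, plus strand): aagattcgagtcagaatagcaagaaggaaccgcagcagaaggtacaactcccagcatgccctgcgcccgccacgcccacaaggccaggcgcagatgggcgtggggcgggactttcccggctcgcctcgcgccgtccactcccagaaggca
Cenpe (chr3:135212413-135212562, plus strand): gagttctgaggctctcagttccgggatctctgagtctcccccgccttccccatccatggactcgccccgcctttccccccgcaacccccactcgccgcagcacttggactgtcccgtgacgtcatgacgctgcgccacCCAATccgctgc
Cenpf (chr1:189688087-189688236, minus strand): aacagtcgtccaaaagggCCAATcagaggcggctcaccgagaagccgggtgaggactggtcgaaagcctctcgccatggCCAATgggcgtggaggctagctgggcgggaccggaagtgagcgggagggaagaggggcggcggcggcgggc

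Gene counts per library were 5871830 and 6620504 in labelled KD+Ccnb1, 4398141 and 3596615 in labelled KD, 5740965 and 8340023 in control, and 23966825 and 25574740 in CCE. The 2 libraries labelled KD stood apart: 40.8% and 45.2% of their reads were unaligned, against 15.7% to 15.9% in the other J1 libraries. The variance between the 2 libraries labelled KD was 22 times that of Poisson noise, against 1.88 times in labelled KD+Ccnb1 and 3.41 times in control. Levels are CPM, gene counts scaled to the library's total of gene counts, fold changes come from a TMM-scaled edgeR fit over the 6 J1 libraries, and a gene is said to have risen or fallen where its Benjamini-Hochberg adjusted p was under 0.05. Eif4a3, the target of the knockdown, was at 47.3 and 53.5 CPM in labelled KD+Ccnb1, 75.7 and 37.5 CPM in labelled KD and 73.5 and 83.7 CPM in control. One library labelled KD therefore lay at the control level, the gene passed the test in no comparison, and groups are called by their labels throughout. The row of Ccnb1 itself held 136 and 131 CPM in labelled KD+Ccnb1, 101 and 126 CPM in labelled KD and 135 and 129 CPM in control, while its processed pseudogene Ccnb1-ps, 99.2% identical over 1287 bases, held 1565 and 1872 counts in labelled KD+Ccnb1, 111 and 107 in labelled KD and 161 and 278 in control. All 8 embryonic stem cell markers were detected in every library, with summed levels of 7540 and 7540 CPM in labelled KD+Ccnb1, 3933 and 3629 CPM in labelled KD and 8122 and 8093 CPM in control. All 8 fell in labelled KD against control and rose in labelled KD+Ccnb1 against labelled KD, and the part of this shift in the results below was not tested. Summed primitive endoderm markers, none of 5 at 0 in labelled KD+Ccnb1 or control and 2 of 5 at 0 in labelled KD, came to 73.2 and 71.1 CPM in labelled KD+Ccnb1, 23.6 and 25.3 CPM in labelled KD, and 9.93 and 11.4 CPM in control. Of these 5, 0 rose and 1 fell in labelled KD against control, and 1 rose in labelled KD+Ccnb1 against labelled KD. In labelled KD+Ccnb1 against control 0 passed the test, though all 5 were higher in both labelled KD+Ccnb1 libraries than in both controls. Of 8 fibroblast markers, 4 or 5 were at 0 in each J1 library, and the sum was 18.8 to 36.7 CPM.

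Without an offset for GC content and transcript length, the 39 genes did not move as a block. In labelled KD against control, 5 rose and 5 fell, 29 did not pass the test, and the median log2 fold change was 0.022, against -0.085 over all 14462 genes tested, of which 11.0% rose and 17.9% fell. In labelled KD+Ccnb1 against labelled KD, 5 rose and 6 fell, with a median of -0.047, against 0.14 over all genes, of which 22.8% rose and 16.0% fell. In labelled KD+Ccnb1 against control, 4 rose and 6 fell, with a median of -0.15, against 0.071 over all genes, of which 9.35% rose and 10.5% fell. As shares of the 39 genes, the members that rose and fell were 12.8% and 12.8%, 12.8% and 15.4%, and 10.3% and 15.4% in these comparisons, near or under the shares of all genes except for the falls in the last comparison. With that offset, 9 members rose and 3 fell in the first comparison, where 2028 and 1939 of 14462 genes did. In the second, 0 members then rose and 14 fell, where 2306 and 2853 genes did. Without the offset, 17 of the 39 passed in at least 1 comparison and 22 in none. The matching share of all genes was not counted, so these numbers cannot be set against it. The comparisons share libraries: the labelled KD libraries stand in the first and the second, with opposite sign, so a gene high in that group appears in both. The counts also turned on single libraries, and those of all genes turned in the same way. In every comparison, members and all genes alike passed most often where a library labelled KD was left out. Both passed least often without a control library in the 2 comparisons with control, and without a library labelled KD+Ccnb1 in the comparison with labelled KD. The ranges are given at the end. Each call below is therefore given with the number of 16 alternative settings or left-out libraries in which it was kept.

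**Figure D1:**
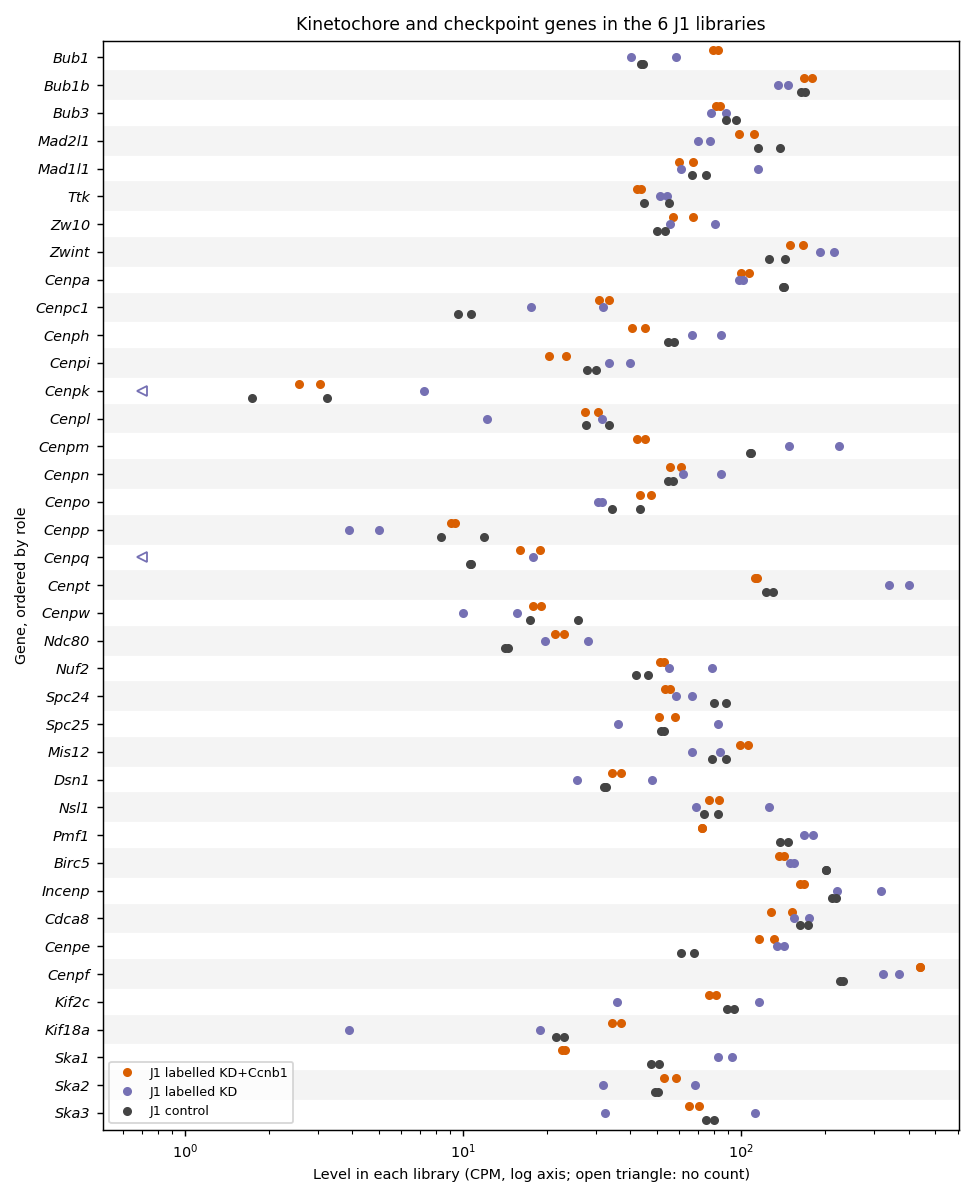
Level of each of the 39 genes in the 6 J1 libraries (x axis, CPM on a log scale), with genes down the page by role and 1 point per library. Cenpt in labelled KD sits at 341 and 402 CPM, apart from every other J1 library, while for Ska3 and Kif2c the 2 libraries labelled KD lie on either side of all others.

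**Figure D2:**
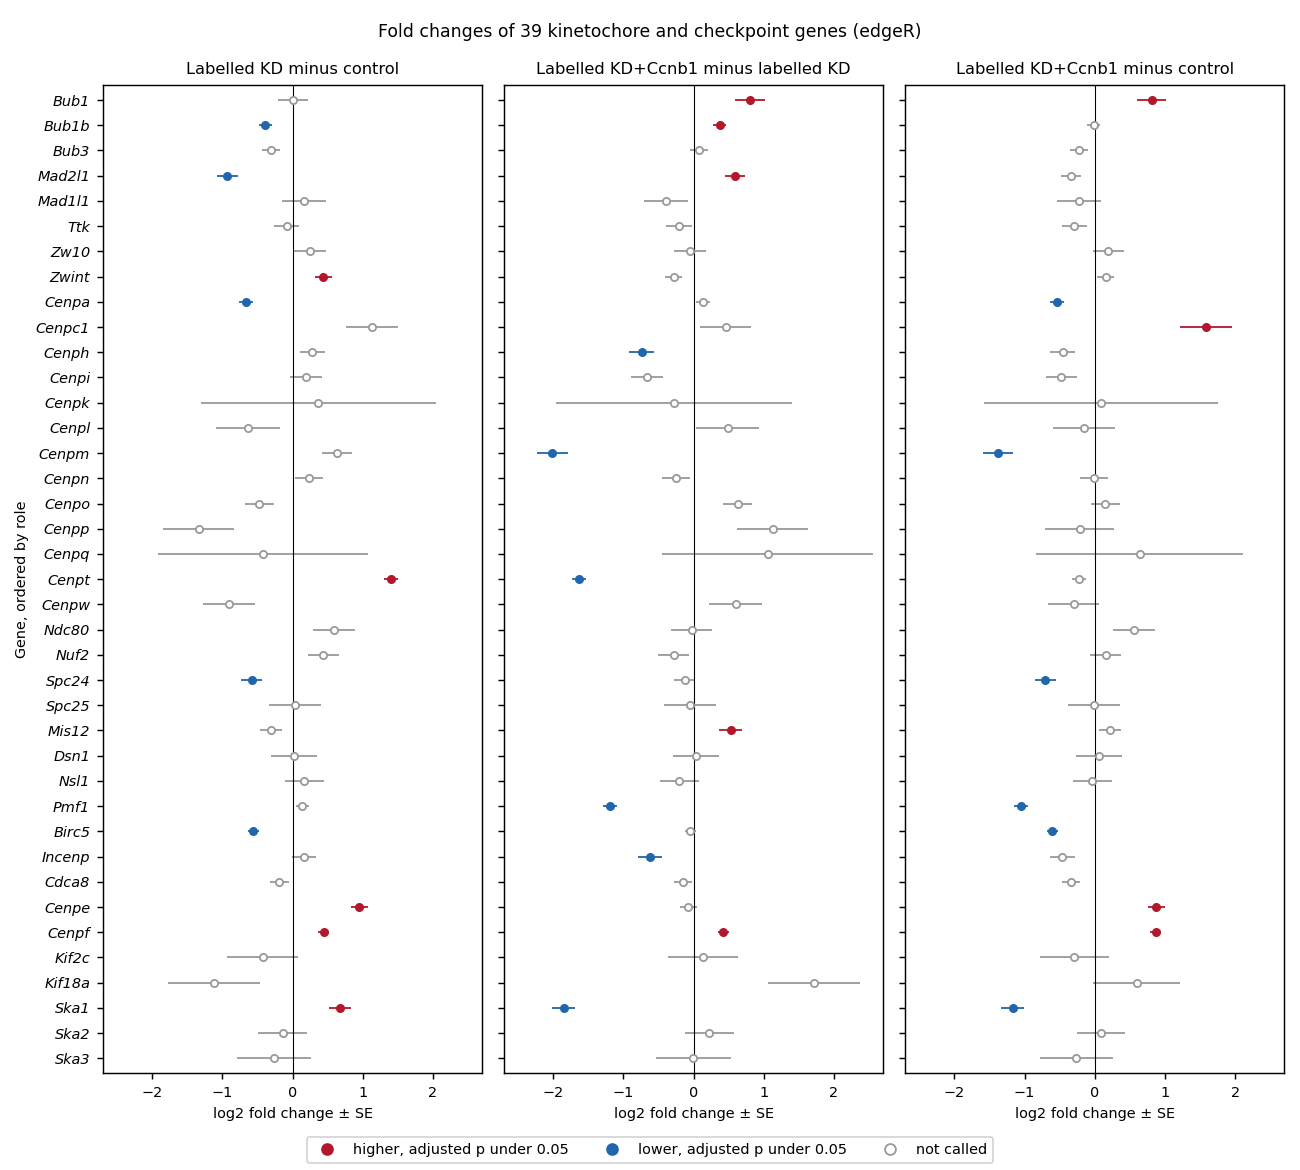
Log2 fold change ± SE of each gene (x axis) in the 3 comparisons, from edgeR's quasi-likelihood fit over 2 libraries a group, with genes down the page by role. Filled red and blue points have an adjusted p under 0.05, and the wide bars of Cenpk and Cenpq go with 1 library labelled KD at 0 counts.

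Among the spindle checkpoint genes, Mad2l1 and Bub1b were lowest in labelled KD, and Bub1 was highest in labelled KD+Ccnb1. Of the 6 checkpoint signalling genes, 2 (33.3%) fell in labelled KD against control, where 17.9% of all genes fell. In labelled KD+Ccnb1 against labelled KD, 3 (50.0%) rose, where 22.8% of all genes rose. Mad2l1, whose product MAD2 is the core of the inhibitor of anaphase, was at 112 and 97.9 CPM in labelled KD+Ccnb1, 77.3 and 70.1 CPM in labelled KD and 137 and 115 CPM in control. Its 3 groups did not overlap. It fell by 0.93 on the log2 scale (SE 0.14, edgeR adjusted p = 0.0085) in labelled KD against control, and rose by 0.59 (SE 0.14, edgeR adjusted p = 0.025) in labelled KD+Ccnb1 against labelled KD. That rise became -0.37 once counts were offset for GC content and transcript length, and the longest Mad2l1 transcript has 7557 bases. Bub1b encodes BubR1, a further part of that inhibitor, and had 168 and 179 CPM in labelled KD+Ccnb1, 136 and 148 CPM in labelled KD and 170 and 164 CPM in control. Both libraries labelled KD were below all others, and Bub1b fell by 0.39 (SE 0.09, edgeR adjusted p = 0.032) against control and rose by 0.37 (SE 0.09, edgeR adjusted p = 0.028) in labelled KD+Ccnb1 against labelled KD. Bub1, the kinase that brings checkpoint proteins to the kinetochore, showed another order, with 79.4 and 82.9 CPM in labelled KD+Ccnb1, 58.2 and 40.0 CPM in labelled KD and 43.7 and 44.2 CPM in control. The libraries labelled KD spanned the controls, and labelled KD+Ccnb1 was above both groups, by 0.80 (SE 0.21, edgeR adjusted p = 0.029) against labelled KD and by 0.81 (SE 0.21, edgeR adjusted p = 0.046) against control. None of the 3 rises against labelled KD passed with the offset, nor did the Bub1 rise against control or the Bub1b fall. Bub3, Mad1l1 and Ttk, which encode the partner of BUB1 and BubR1, the anchor of MAD2 and the kinase MPS1, passed in no comparison. Of the promoter stretches printed above, those of Bub1 and Bub1b hold CCAAT and that of Mad2l1 does not. Of the 16 alternatives, the Mad2l1 fall was kept in 14 (adjusted p up to 0.083, without control replicate 1) and its rise in 8, the Bub1b fall and rise in 6 each, and the Bub1 rises in 7 against labelled KD and 9 against control. Summed over the 6 genes, the level was 551 and 546 CPM in labelled KD+Ccnb1, 464 and 512 CPM in labelled KD and 566 and 532 CPM in control.

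Zwint, which helps to bring the RZZ complex to the outer kinetochore, was at 150 and 167 CPM in labelled KD+Ccnb1, 193 and 215 CPM in labelled KD and 126 and 144 CPM in control. The 3 groups were separate, and Zwint rose in labelled KD against control by 0.44 (SE 0.12, edgeR adjusted p = 0.043), a call kept in 9 of 16 alternatives. Zw10, a subunit of the RZZ complex, did not pass in any comparison, with log2 fold changes of 0.25 (SE 0.23), -0.05 (SE 0.23) and 0.19 (SE 0.23) in labelled KD against control, labelled KD+Ccnb1 against labelled KD and labelled KD+Ccnb1 against control.

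Of the 13 centromere and inner kinetochore genes, 1 rose (Cenpt) and 1 fell (Cenpa) in labelled KD against control, 7.69% each, where 11.0% and 17.9% of all genes did. Cenpa, which encodes the histone variant that marks the centromere, was at 100 and 106 CPM in labelled KD+Ccnb1, 102 and 98.1 CPM in labelled KD and 142 and 142 CPM in control. Every library labelled KD or KD+Ccnb1 was below both controls, and the libraries of these 2 groups overlapped. Cenpa fell by 0.66 (SE 0.10, edgeR adjusted p = 0.0076) in labelled KD and by 0.53 (SE 0.10, edgeR adjusted p = 0.017) in labelled KD+Ccnb1, each against control. Both falls use the same control libraries, and they were kept in 13 and 12 of 16 alternatives.

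Cenpt had the lowest adjusted p of the 39 genes in labelled KD against control. CENP-T is a CCAN protein that binds centromeric DNA through a histone fold it shares with CENP-W and reaches out to the NDC80 complex. Cenpt was at 113 and 114 CPM in labelled KD+Ccnb1, 402 and 341 CPM in labelled KD and 130 and 123 CPM in control. Labelled KD was far above the other groups, 2.64-fold against control, a log2 fold change of 1.40 (SE 0.10, edgeR adjusted p = 0.00081). Labelled KD+Ccnb1 was below labelled KD, with a log2 fold change of -1.63 (SE 0.10, edgeR adjusted p = 0.00033), and differed from control by -0.23 (SE 0.10, edgeR adjusted p = 0.17). Its partner Cenpw had 17.9 and 19.0 CPM in labelled KD+Ccnb1, 15.7 and 10.01 CPM in labelled KD and 26.0 and 17.4 CPM in control, and passed in no comparison (adjusted p of 0.13, 0.26 and 0.64). Both Cenpt calls were kept in all 16 alternatives tried, with 1.26 to 1.56 in labelled KD against control and -1.75 to -1.47 in labelled KD+Ccnb1 against labelled KD.

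Cenpm, of the CENP-H, CENP-I, CENP-K and CENP-M group within the CCAN, was at 45.3 and 42.1 CPM in labelled KD+Ccnb1, 149 and 225 CPM in labelled KD and 109 and 108 CPM in control. The 3 groups were separate, with labelled KD+Ccnb1 lowest. It fell by 2.02 (SE 0.22, edgeR adjusted p = 0.0018) in labelled KD+Ccnb1 against labelled KD, and the log2 fold change against control was -1.38 (SE 0.22, edgeR adjusted p = 0.011). The first fall was kept in all 16 alternatives (-2.24 to -1.62) and the second difference in 11. Labelled KD against control gave 0.63 (SE 0.21, edgeR adjusted p = 0.073). Cenph, of the same group, had 45.3 and 40.5 CPM in labelled KD+Ccnb1, 84.8 and 66.5 CPM in labelled KD and 57.3 and 54.4 CPM in control, and fell by 0.74 (SE 0.18, edgeR adjusted p = 0.024) in labelled KD+Ccnb1 against labelled KD, kept in 11 of 16 alternatives. Cenpi, the third partner, had 20.4 and 23.4 CPM in labelled KD+Ccnb1, 40.0 and 33.4 CPM in labelled KD and 27.9 and 29.98 CPM in control. Its groups were separate in the same order as those of Cenpm and Cenph, and its log2 fold change of -0.66 (SE 0.23, edgeR adjusted p = 0.068) between the first 2 did not pass. Cenpk, the fourth, was near the limit of detection, with 0 and 26 counts in the 2 libraries labelled KD, where a count of 0 allows up to 0.682 CPM.

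Cenpc1 encodes CENP-C, which joins the CENP-A nucleosome to the MIS12 complex. It was at 30.8 and 33.4 CPM in labelled KD+Ccnb1, 17.5 and 32.0 CPM in labelled KD and 9.58 and 10.7 CPM in control. The controls were below every other J1 library. Cenpc1 was higher in labelled KD+Ccnb1 than in control by a log2 fold change of 1.59 (SE 0.37, edgeR adjusted p = 0.035), while 1.13 (SE 0.37, edgeR adjusted p = 0.071) in labelled KD against control did not pass. The call was kept in 9 of 16 alternatives. Its counts are uncertain, since the pseudogene Gm13477 is 93.2% identical over 2695 bases and held 124 and 146 counts in labelled KD+Ccnb1, 63 and 60 in labelled KD and 39 and 55 in control. The further CCAN genes Cenpl, Cenpn, Cenpo, Cenpp and Cenpq passed in no comparison. Cenpo and Cenpp share 19.0% and 12.3% of their exon bases with the opposite-strand genes Adcy3 and Ippk, and since the strand handling of the counts is not given in the sources used here, reads of such pairs cannot be told apart.

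Within the NDC80 complex, the rod that grips microtubules, only Spc24 passed the test, while Ndc80, Nuf2 and Spc25 did not in any comparison. The share of all genes that passed in at least 1 comparison was not counted. Spc24, at the end of the rod that docks on the inner layers, was at 53.1 and 55.6 CPM in labelled KD+Ccnb1, 66.8 and 58.4 CPM in labelled KD and 79.6 and 88.5 CPM in control. The controls were highest. Spc24 fell by 0.58 (SE 0.15, edgeR adjusted p = 0.037) in labelled KD and by 0.70 (SE 0.15, edgeR adjusted p = 0.026) in labelled KD+Ccnb1, each against control, kept in 6 and 9 of 16 alternatives. Its dimer partner Spc25 had 50.8 and 57.7 CPM in labelled KD+Ccnb1, 82.5 and 36.1 CPM in labelled KD and 52.6 and 51.6 CPM in control, so the 2 libraries labelled KD lay above and below all others. Ndc80 itself had 23.0 and 21.4 CPM in labelled KD+Ccnb1, 28.2 and 19.7 CPM in labelled KD and 14.5 and 14.1 CPM in control, with both controls lowest and adjusted p of 0.20 and 0.26 against them.

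Of the MIS12 complex, which bridges the inner kinetochore to the NDC80 complex, Pmf1 and Mis12 passed the test, and their directions differed. Here too the matching share of all genes was not counted. Pmf1 was at 72.5 and 72.0 CPM in labelled KD+Ccnb1, 181 and 168 CPM in labelled KD and 147 and 138 CPM in control. Both libraries labelled KD+Ccnb1 were below every other J1 library. In labelled KD+Ccnb1, Pmf1 fell by 1.19 (SE 0.10, edgeR adjusted p = 0.00078) against labelled KD, and its log2 fold change against control was -1.05 (SE 0.10, edgeR adjusted p = 0.0023). The first fall was kept in all 16 alternatives (-1.45 to -1.09) and the second difference in 12. Mis12 had 106 and 99.2 CPM in labelled KD+Ccnb1, 66.8 and 83.7 CPM in labelled KD and 78.7 and 88.1 CPM in control, and rose by 0.53 (SE 0.16, edgeR adjusted p = 0.048) in labelled KD+Ccnb1 against labelled KD. That rise was kept in 5 of 16 alternatives. Dsn1 and Nsl1, the remaining subunits, passed in no comparison.

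The chromosomal passenger complex corrects wrong attachments and includes the kinase Aurora B. Birc5, which encodes its subunit survivin, was at 137 and 143 CPM in labelled KD+Ccnb1, 156 and 150 CPM in labelled KD and 202 and 202 CPM in control. Controls were above all other J1 libraries. Birc5 fell by 0.56 (SE 0.08, edgeR adjusted p = 0.0067) in labelled KD and by 0.60 (SE 0.08, edgeR adjusted p = 0.0063) in labelled KD+Ccnb1, each against control, kept in 13 and 12 of 16 alternatives. Incenp, the scaffold, was at 169 and 163 CPM in labelled KD+Ccnb1, 221 and 318 CPM in labelled KD and 213 and 220 CPM in control, and fell by 0.62 (SE 0.18, edgeR adjusted p = 0.039) in labelled KD+Ccnb1 against labelled KD, kept in 9 of 16 alternatives. Cdca8, which encodes borealin, had 128 and 153 CPM in labelled KD+Ccnb1, 154 and 176 CPM in labelled KD and 163 and 174 CPM in control and passed in no comparison.

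Cenpe and Cenpf, the members with the longest transcripts, rose in labelled KD and in labelled KD+Ccnb1, each against control. Cenpe, a motor that carries chromosomes to the spindle equator, was at 116 and 132 CPM in labelled KD+Ccnb1, 142 and 135 CPM in labelled KD and 60.6 and 67.5 CPM in control. Both controls were below every other J1 library. Cenpe rose by 0.95 (SE 0.13, edgeR adjusted p = 0.0051) in labelled KD and by 0.88 (SE 0.12, edgeR adjusted p = 0.0079) in labelled KD+Ccnb1, each against control, kept in 14 and 10 of 16 alternatives. Cenpf, a large coiled-coil protein of the outer corona, was at 440 and 442 CPM in labelled KD+Ccnb1, 370 and 325 CPM in labelled KD and 232 and 226 CPM in control. Its 3 groups were separate, with labelled KD+Ccnb1 highest. It rose by 0.45 (SE 0.08, edgeR adjusted p = 0.012) in labelled KD against control, by 0.42 (SE 0.08, edgeR adjusted p = 0.010) in labelled KD+Ccnb1 against labelled KD, and by 0.87 (SE 0.08, edgeR adjusted p = 0.0022) in labelled KD+Ccnb1 against control. These were kept in the same direction in 11, 12 and 12 of 16 alternatives. With counts offset for GC content and transcript length, the second became a fall that passed the test, with a log2 fold change of -0.49 (edgeR adjusted p = 0.0094, and 0.019 with a replicate block as well). The kinesins Kif18a and Kif2c, which shorten or dampen microtubule ends, passed in no comparison, and their libraries labelled KD held 83 and 14 counts of Kif18a and 158 and 418 counts of Kif2c.

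The SKA complex helps the NDC80 complex to track shortening microtubules. Of its 3 genes, 1 passed in at least 1 comparison, and the matching share of all genes was not counted. Ska1 was at 22.7 and 23.3 CPM in labelled KD+Ccnb1, 92.5 and 82.6 CPM in labelled KD and 47.4 and 50.6 CPM in control. The 3 groups were well separated. Ska1 rose by 0.68 (SE 0.16, edgeR adjusted p = 0.027) in labelled KD against control. It fell by 1.85 (SE 0.16, edgeR adjusted p = 0.00095) in labelled KD+Ccnb1 against labelled KD, with -1.17 (SE 0.16, edgeR adjusted p = 0.0072) against control, and the first of these was kept in all 16 alternatives (-2.18 to -1.72) and the second in 12. The rise was kept in 9. Ska2, which shares 10.1% of its exon bases with the opposite-strand gene Gm11491, and Ska3 passed in no comparison. The libraries labelled KD held 143 and 402 counts of Ska3.

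**Figure D3:**
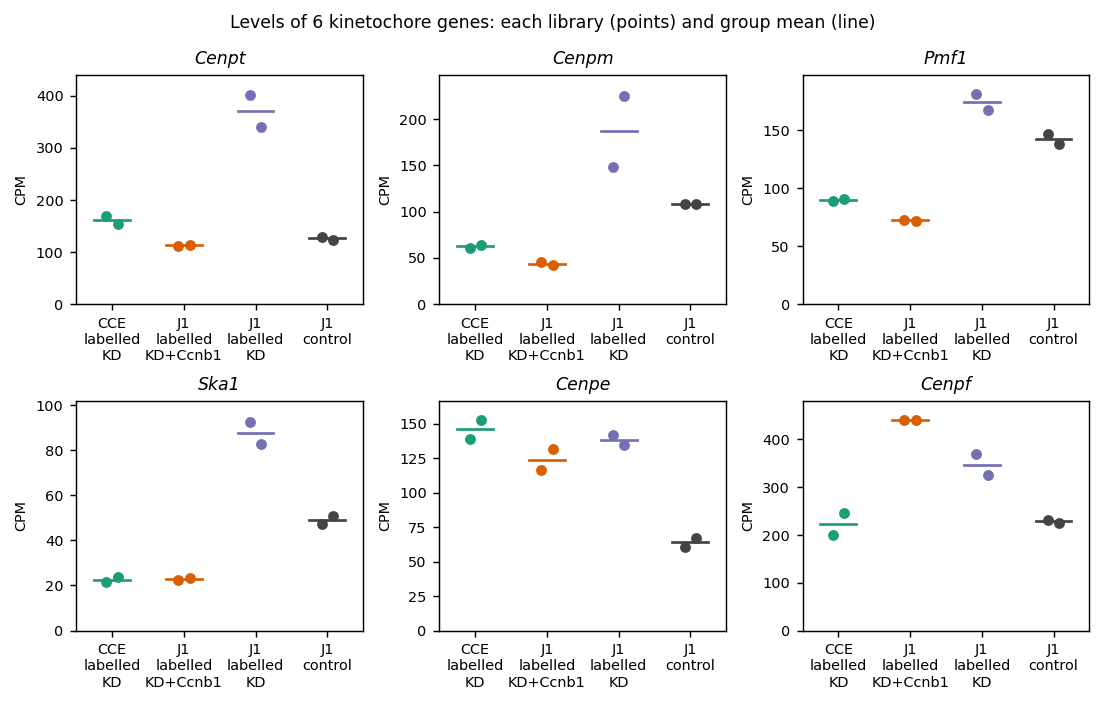
Levels of Cenpt, Cenpm, Pmf1, Ska1, Cenpe and Cenpf in CPM (y axes from 0) in each of the 8 libraries, with points for libraries and lines for means of 2. Cenpt, Cenpm, Pmf1 and Ska1 are highest in J1 labelled KD and lowest of the J1 groups in labelled KD+Ccnb1, while Cenpe is lowest in control, at 60.6 and 67.5 CPM, and Cenpf is highest in labelled KD+Ccnb1, at 440 and 442 CPM. The CCE libraries are shown for description, since their counts were not made like those of J1.

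The 2 libraries of a group agreed least in labelled KD. Of the 37 members with counts in both libraries labelled KD, 12 (32.4%) differed over 1.5-fold between them, against 43.0% of all tested genes. In labelled KD+Ccnb1 no member of 39 did so, and in control 1 did. Median counts per member, summed over the 2 libraries of a group, were 727 in labelled KD+Ccnb1, 575 in labelled KD and 788 in control. Of the 4 calls kept in all alternatives in labelled KD+Ccnb1 against labelled KD (Cenpm, Cenpt, Pmf1 and Ska1), each had 2 libraries labelled KD that lay apart from labelled KD+Ccnb1 by more than their own difference.

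**Figure D4:**
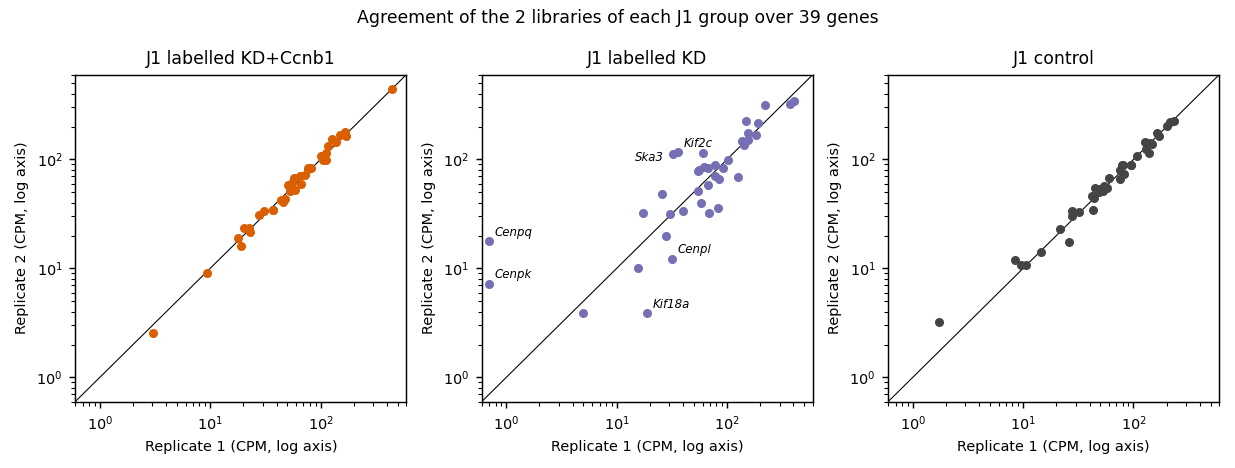
Level of each of the 39 genes in replicate 1 (x axis) and replicate 2 (y axis) of the 3 J1 groups, in CPM on log axes, with the line of equality. Points of labelled KD+Ccnb1 and control lie near the line, while in labelled KD Kif18a, Cenpl, Kif2c and Ska3 lie far off it, and Cenpk and Cenpq, at 0 counts in replicate 1, are drawn at the left edge.

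The spread of the libraries labelled KD entered every test, because 1 fit covered the 3 groups. With only the 4 libraries of labelled KD+Ccnb1 and control in the fit, 7 members rose and 17 fell, where 31.4% and 30.7% of 13945 genes did. The share of members that rose was under that of all genes, and the share that fell was above it. Those that rose were Bub1, Cenpc1, Cenpq, Ndc80, Cenpe, Cenpf and Kif18a, and the 17 that fell are not named here. Over the 16 alternatives, this comparison gave -0.26 to 0.67 for Kif18a and -0.11 to 0.90 for Cenpf. In CPM, 14 members were higher and 16 lower in both labelled KD+Ccnb1 libraries than in both controls, against 45.3% and 33.7% of all genes. In that comparison the log2 fold change also moved with transcript length and GC content: across the 39 genes the Spearman coefficient was 0.30 with length and -0.41 with GC, and across all genes 0.35 and -0.31, as a description of genes that share libraries. An offset for both was fitted to these same libraries to remove such trends. The coefficients over the 39 genes, then -0.03 and -0.01, follow from that design and test nothing. With the offset, edgeR called 0 members higher, with 1 at an unadjusted p under 0.05, and 6 fell (Mad2l1, Cenpa, Cenpm, Pmf1, Birc5 and Ska1), where 4.79% and 8.84% of all genes did. Cenpf then had a log2 fold change of -0.11 and Cenpe one of 0.05, so the height of these 2 long transcripts in labelled KD+Ccnb1 against control depends on that choice, whereas Cenpe in labelled KD against control passed with the offset as well.

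**Figure D5:**
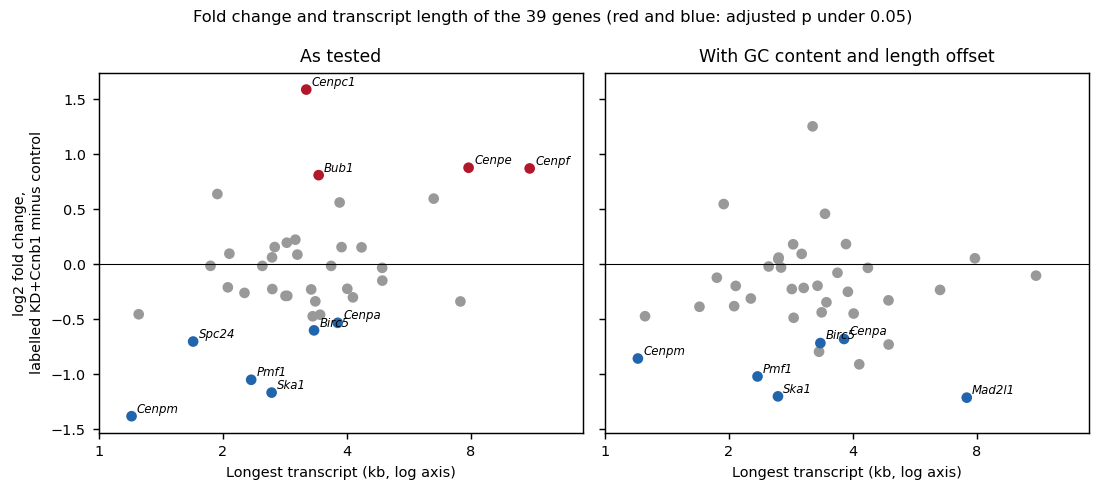
Log2 fold change of labelled KD+Ccnb1 minus control (y axis) by length of the longest transcript (x axis, kb on a log scale) for the 39 genes, as tested and with an offset for GC content and length. Red and blue points have an adjusted p under 0.05 in edgeR, and the long transcripts of Cenpe and Cenpf stand at 0.88 and 0.87 on the left and at 0.05 and -0.11 on the right.

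Per kilobase of its longest transcript, Cenpm had the highest control level of the 39 genes, 90.1 CPM per kb, ahead of Incenp at 62.8, Pmf1 at 60.7 and Birc5 at 60.6 CPM per kb. The control libraries of Incenp and Pmf1 overlapped, as did those of Pmf1 and Birc5, and of 38 neighbouring pairs in the order 19 overlapped. The lowest were Cenpk at 1.20, Cenpc1 at 3.17, Kif18a at 3.44 and Ndc80 at 3.72 CPM per kb. In labelled KD Cenpt stood second, at 113 CPM per kb, behind Cenpm at 155 CPM per kb. Summed over all 39 genes, the level was 3014 and 3091 CPM in labelled KD+Ccnb1, 3575 and 3782 CPM in labelled KD and 3078 and 3080 CPM in control. The CCE libraries, whose summary rows show another way of counting, held 3783 and 3812 CPM in sum. Ndc80 was at 103 and 115 CPM in CCE, against 14.5 and 14.1 CPM in J1 control, and Cenpk at 24.6 and 20.6 CPM, against 1.74 and 3.24 CPM. Ska1 was at 21.4 and 23.7 CPM in CCE. Line, treatment and counting cannot be told apart in these values.

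Other genes of the same machinery, from a list of 31, held rises and falls in every comparison of the fit without the offset. This list was not counted with the offset. In labelled KD against control, 2 rose and 4 fell, in labelled KD+Ccnb1 against labelled KD 8 rose and 4 fell, and in labelled KD+Ccnb1 against control 7 rose and 3 fell, with median log2 fold changes of -0.13, 0.13 and 0.30. As shares of the 31, those that rose and fell were 6.45% and 12.9%, 25.8% and 12.9%, and 22.6% and 9.68%, against 11.0% and 17.9%, 22.8% and 16.0%, and 9.35% and 10.5% of all genes, so the first pair was under the shares of all genes and the second near them. Zwilch, which encodes the RZZ partner of ZW10, was at 145 and 136 CPM in labelled KD+Ccnb1, 343 and 384 CPM in labelled KD and 167 and 176 CPM in control, the same order as Cenpt, and rose by 0.93 (SE 0.10, edgeR adjusted p = 0.0025) in labelled KD against control. Seh1l, a nucleoporin that also sits at kinetochores, was at 171 and 173 CPM in labelled KD+Ccnb1, 51.2 and 49.8 CPM in labelled KD and 101 and 115 CPM in control. It fell by 1.25 (SE 0.12, edgeR adjusted p = 0.0019) in labelled KD against control and rose by 1.85 (SE 0.12, edgeR adjusted p = 0.00037) in labelled KD+Ccnb1 against labelled KD. Knl1, the scaffold on which BUB1 and BubR1 gather, rose by 2.32 (SE 0.24, edgeR adjusted p = 0.0015) in labelled KD+Ccnb1, at 81.7 and 99.7 CPM, against labelled KD, at 16.4 and 22.2 CPM. Sgo2a, a shugoshin that guards centromeric cohesion, rose by 1.25 (SE 0.17, edgeR adjusted p = 0.0036) in that comparison. Rcc2, a regulator linked to the passenger complex, was highest in control, at 818 and 795 CPM, and fell by 0.41 (SE 0.05, edgeR adjusted p = 0.0035) in labelled KD against control. Of the 16 alternatives, the Zwilch rise and the Rcc2 fall were kept in 15 each, the Sgo2a rise in 14, and the Seh1l fall and rise and the Knl1 rise in 16.

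Beyond the kinetochore, 3 further lists were counted in the same comparisons, where 11.0% of all genes rose and 17.9% fell, 22.8% rose and 16.0% fell, and 9.35% rose and 10.5% fell. All these counts come from the fit without the offset for GC content and transcript length, and the lists were not counted with it. Of 16 genes of the anaphase-promoting complex, the ubiquitin ligase that the checkpoint restrains, 2 rose and 2 fell in labelled KD against control, 3 rose and 7 fell in labelled KD+Ccnb1 against labelled KD, and 5 fell in labelled KD+Ccnb1 against control, with medians of -0.13, -0.48 and -0.39. The first counts, 12.5% each, were near or under the shares of all genes, and the falls in the other comparisons were 43.8% and 31.3% of the list. Fzr1, its late activator CDH1, was at 113 and 111 CPM in labelled KD+Ccnb1, 141 and 184 CPM in labelled KD and 213 and 218 CPM in control, and fell by 0.57 (SE 0.14, edgeR adjusted p = 0.035) in labelled KD against control. Anapc15, a subunit that helps to release the checkpoint, was at 46.7 and 50.3 CPM in labelled KD+Ccnb1, 93.0 and 104 CPM in labelled KD and 67.4 and 77.9 CPM in control, and fell by 0.94 (SE 0.15, edgeR adjusted p = 0.0072) in labelled KD+Ccnb1 against labelled KD. Of 13 cohesin genes, which hold sister chromatids together, 2 rose and 3 fell in labelled KD against control, 7 rose and 1 fell in labelled KD+Ccnb1 against labelled KD, and 6 rose in labelled KD+Ccnb1 against control, with medians of -0.10, 0.66 and 0.82. The first counts, 15.4% and 23.1%, were near the shares of all genes, and the rises in the other comparisons were 53.8% and 46.2% of the list. The cohesin subunit Rad21 was at 467 and 467 CPM in labelled KD+Ccnb1, 105 and 141 CPM in labelled KD and 200 and 174 CPM in control, and Smc3 at 151 and 158 CPM, 67.8 and 60.9 CPM, and 73.3 and 70.9 CPM in these groups. Of 39 other G2/M phase genes, 8 rose and 16 fell in labelled KD against control, 18 rose and 3 fell in labelled KD+Ccnb1 against labelled KD, and 7 rose and 2 fell in labelled KD+Ccnb1 against control, with medians of -0.37, 0.50 and 0.24. These were 20.5% and 41.0%, 46.2% and 7.69%, and 17.9% and 5.13% of the list. Cks1b, a small partner of cyclin-dependent kinases, fell to 40.9 and 39.8 CPM in labelled KD, against 133 and 136 CPM in control, and was at 86.9 and 86.9 CPM in labelled KD+Ccnb1. Kif20b, a kinesin of cytokinesis, rose by 1.07 (SE 0.10, edgeR adjusted p = 0.0013) in labelled KD+Ccnb1 against labelled KD. Of the 16 alternatives, the Fzr1 fall was kept in 8, the Anapc15 fall in 14, the Cks1b fall in labelled KD against control in 16 and the Kif20b rise in 14.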

How the data were processed

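Whole-number read counts per Ensembl gene were deposited by the authors, 1 file per library. Per the submitters' processing notes, mm9, HTSeq 0.11.2, SAMtools 1.9, edgeR 3.26.8 and Bowtie2 2.3.4.3 were used, with neither roles nor strand handling given. The 5 summary rows that name no gene were left out of totals and tests. They show that CCE counts were made otherwise, with 0 reads in the unaligned and low-quality rows, so CCE was not tested against J1. Symbols matched 32620 of 37310 identifiers. Transcript length and GC content came from GENCODE M21, which uses another build. Copies were searched with BLAST at 90% identity over 300 bases. The test was edgeR 4.0.16's quasi-likelihood F test in R 4.3.3 (TMM, filterByExpr, 6 J1 libraries, no replicate block, two-sided), adjusted by Benjamini-Hochberg over 14462 genes. It was tried on simulated data with an equal spread in all groups, so that trial does not cover the unequal spread of these groups. SE was the size of the log2 fold change divided by √F. Alternatives used DESeq2 1.42.0, limma 3.58.1 voom, other filters and fits, a loess offset for GC content and length, and each library left out. A count of 0 allows 3 counts (counting error only). Replicate numbers did not pair libraries (correlations 0.027, -0.002 and -0.030). The 39 genes and all lists were chosen with earlier results of these data known. All 39 genes may be named. Values per library are given for those that passed in a comparison and for complex partners. From each other list, up to 3 genes with the smallest adjusted p per comparison were eligible.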

Additional observations from a re-analysis of the deposited data

How the results depend on the processing

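Of the member calls, 1 of 10 in labelled KD against control (Cenpt), 4 of 11 in labelled KD+Ccnb1 against labelled KD (Cenpm, Cenpt, Pmf1 and Ska1) and 0 of 10 in labelled KD+Ccnb1 against control were kept in all 16 alternatives. In the last comparison, Cenpa, Pmf1, Birc5 and Ska1 were lost only where a library was left out. The share of all called genes kept in this way was not counted, so the member numbers cannot be set against it.

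For labelled KD against control, 10 members and 4184 genes gave 5 members and 1760 genes with only those 2 groups in the fit, 2631 genes with a replicate block and 2416 genes with the block and the offset. With the offset, 9 members rose and 3 fell, where 2028 and 1939 genes did, and with block and offset 6 rose and 1 fell, where 1259 and 1157 did. The median of members (0.022) was -0.095 with voom, 0.25 with the offset and 0.22 with block and offset. Leaving out a library gave 1 to 27 members, 701 to 10225 genes and a median of -0.15 to 0.061. The highest counts came without a library labelled KD (26 and 27 members) and the lowest without a control (1 each, Cenpt).

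For labelled KD+Ccnb1 against labelled KD, 11 members and 5616 genes became 7 and 4458 with voom. They became 5 and 3997 with the 2 groups alone, 7 and 4178 with the replicate block, and 12 and 3674 with block and offset. With the offset, 0 members rose and 14 fell, where 2306 and 2853 genes did, and with block and offset 0 rose and 12 fell, where 1501 and 2173 did. The median of -0.047 became -0.42 with the offset and -0.37 with block and offset. Leaving out a library gave 4 to 25 members, 1674 to 11078 genes and a median of -0.028 to 0.062.

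For labelled KD+Ccnb1 against control, 10 members and 2865 genes became 23 and 8608 with voom and 24 and 8658 with the 2 groups alone. They became 6 and 1971 with the offset, 5 and 1163 with block and offset, and 11 and 4656 with DESeq2. The median of -0.15 became -0.21 with the 2 groups alone, -0.23 with the offset and -0.24 with block and offset. Leaving out a library gave 0 to 23 members, 254 to 8806 genes and a median of -0.14 to -0.021. Without either control library edgeR called 0 members, with 9 and 10 at an unadjusted p under 0.05. Over all genes with a length, the median log2 fold change was 0.11 with the offset, against -0.086 without it, in labelled KD against control, and -0.15, against 0.14, in labelled KD+Ccnb1 against labelled KD. The median control level of members, 55.9 CPM, was 59.1 CPM after TMM scaling.

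Some single genes turned direction when a library labelled KD was left out. Over all left-out libraries, labelled KD against control ranged from -0.70 to 0.48 for Spc25, -0.35 to 0.51 for Nsl1, -1.44 to 0.35 for Ska3, -0.40 to 0.54 for Mad1l1, -0.53 to 0.38 for Dsn1 and -7.03 to 1.32 for Cenpk. Labelled KD+Ccnb1 against labelled KD ranged from -0.46 to 0.71 for Spc25, -0.51 to 0.34 for Nsl1, -0.59 to 1.21 for Ska3, -0.44 to 1.28 for Kif2c, -0.44 to 0.55 for Eif4a3 and -1.24 to 7.13 for Cenpk. The Cenpk values rest on a library at 0 counts and depend on the prior count. With the offset, Mad2l1 was at -0.37 and Cenpf at -0.49 in labelled KD+Ccnb1 against labelled KD, the same to 2 decimals with block and offset (the Cenpf falls passed the test, the Mad2l1 values did not), and Cenpf was at -0.11 in labelled KD+Ccnb1 against control in both. Ccnb1 was at 1.34 in labelled KD+Ccnb1 against control when its pseudogene copies were added. The cause of these changes was not tested, apart from the added copies and the libraries left out. Where 1 library of a group remained, it was assumed to vary like the others.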
